A study of Mus musculus with 6 samples.

Results

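The Nduf genes encode the nuclear subunits of respiratory complex I (NADH:ubiquinone oxidoreductase) and, under the names Ndufaf, a set of factors that help to assemble it. They were described here in subcutaneous fat of the groin (inguinal white adipose tissue) from mice that had gone through sleep fragmentation followed by recovery sleep and from control mice. Members were the rows of the expression table whose Ensembl gene identifier maps to a mouse symbol starting with Nduf, without the 2 rows whose symbols end in -ps, and with a mean of at least 1 normalised read count over the 6 libraries. The rule gave 48 of the 25894 genes in the table, 40 subunits and 8 assembly factors, and 0 Nduf rows fell under the mean of 1. All 48 were among the 22290 genes tested.

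The fragmented, recovered group was 3 female C57BL/6N mice with 8 weeks of fragmented sleep and then 2 weeks of recovery (labelled SF 8w-SR 2w, called fragmented, recovered 1 to 3), and the control group was 3 mice labelled Control (control 1 to 3). All 6 were of the same strain, and the series text gives an age of 15 weeks. Each library was RNA of 1 mouse, taken after 10 h of fasting, so the p-values measure the spread between these mice. How the control mice were housed, and how sleep was broken, is not given in the sources used here.

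Complex I is the entry point of electrons from NADH into the respiratory chain. Its matrix arm holds the N module, which oxidises NADH, and the Q module, which passes the electrons to ubiquinone. Its membrane arm, the ND1, ND2, ND4 and ND5 modules, pumps protons. A small set of core subunits, partly encoded by mitochondrial DNA, carries out the reaction, and the many supernumerary subunits surround and stabilise that core. White adipocytes have fewer mitochondria than brown adipocytes, and complex I in them regenerates NAD+ and contributes to the supply of ATP.

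No Nduf gene passed the threshold in the comparison of the fragmented, recovered mice with the controls. Of the 40 subunits, 34 were higher by value and 6 lower, with a median log2 difference of 0.55 and a range from -0.98 for Ndufb2 to 2.13 for Ndufa4l2. Of the 8 assembly factors, 6 were higher and 2 lower, with a median of 0.26. Over all genes tested, 51.6% were higher and the median was 0.02. The controls disagreed among themselves on these genes far more than the fragmented, recovered mice did. Control 1 was the highest of the 6 libraries for 35 of the 48 genes (72.9%, against 12.7% of all genes). Controls 2 and 3 were the lowest pair for 36 (75%, against 20.6% of all genes). The test was limma on log2(normalised read count + 1), fragmented, recovered minus control, with Benjamini-Hochberg adjustment over all genes, and called 0 of the 48 at an adjusted p under 0.05, against 0% of all genes. No limma adjusted p was below 0.697.

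Before adjustment, p was under 0.05 for 1 higher member, Ndufa4l2 (2.08% of members, against 3.24% of all genes), and for 2 lower members, Ndufb2 and Ndufaf4 (4.17%, against 2.14%). The same 3 genes were the ones whose groups did not overlap. Every fragmented, recovered mouse was above every control for 1 of 48 members, against 5.02% of all genes, and below every control for 2 of 48, against 3.58%. Both shares lie near those of all genes, so the counts give no result about the members as a list. On reads recovered from the normalised values, edgeR and DESeq2 also called 0 genes over the whole table, with 1018 and 1251 genes at an unadjusted p under 0.05, against 1201 by limma. The size of the subunit difference depended on the method, with a median of 0.37 by edgeR, 0.36 by DESeq2 and 0.93 by limma-voom with quality weights, against 0.55 by limma.

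**Figure D1:**
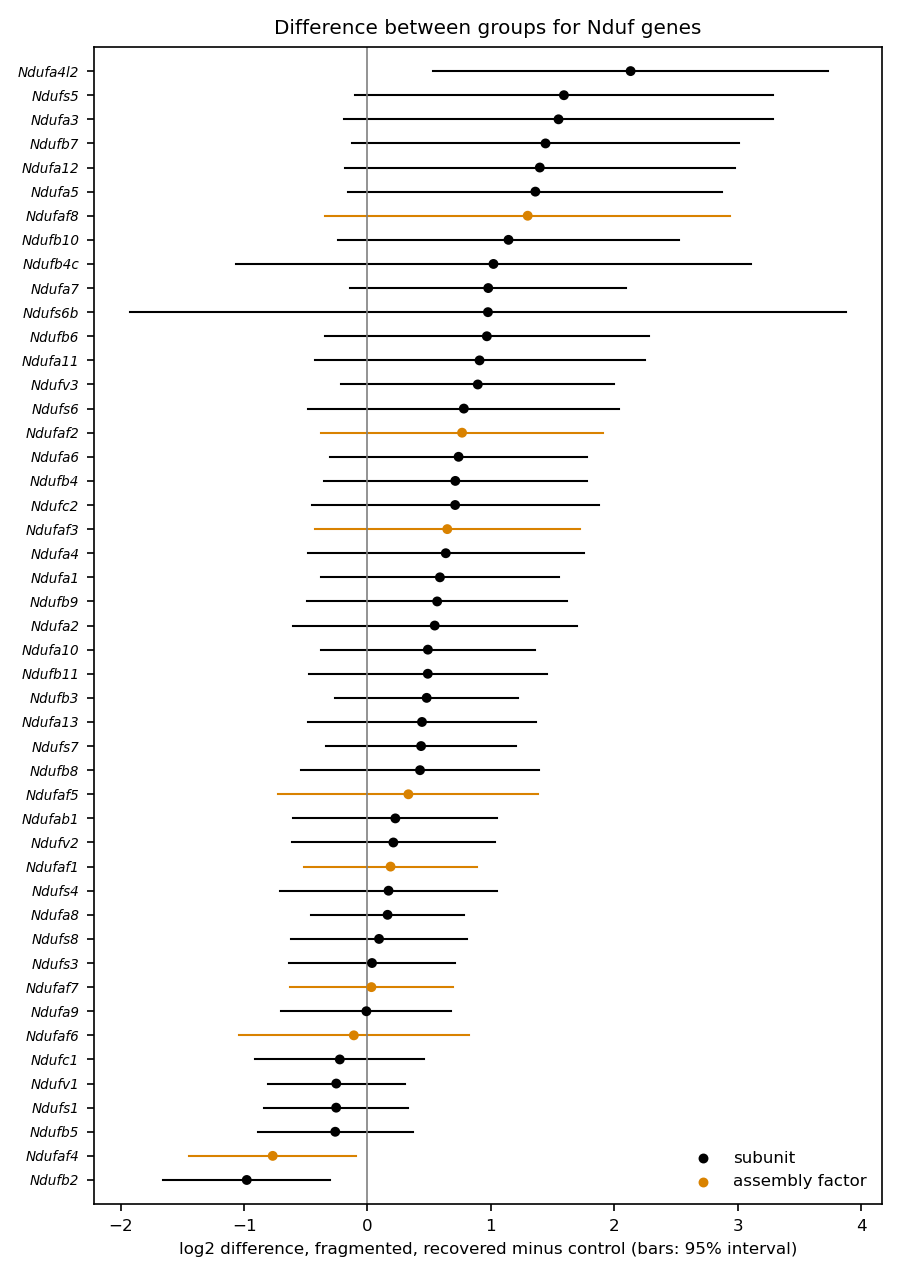
Log2 difference of 47 of the 48 Nduf genes, fragmented, recovered minus control, on the log2(normalised read count + 1) scale, with 95% intervals from limma (3 mice a group). Black points are subunits and orange points assembly factors; only the intervals of Ndufa4l2, Ndufaf4 and Ndufb2 leave out 0, and none of the 3 passed the adjusted threshold.

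Recovered reads ran from 18349501 to 19703569 in the fragmented, recovered libraries and from 15610201 to 17028980 in the controls. White adipocyte markers were present in every library, with summed normalised counts of 497411 to 966460 in fragmented, recovered mice and 401735 to 779253 in controls and none of the 10 markers at 0. Markers of other tissues differed between libraries. The 12 skeletal muscle markers summed to 419 to 94917 in fragmented, recovered mice and 196 to 12207 in controls, highest in fragmented, recovered 1 and in control 2, with 8 of them at 0 in at least 1 library. The 12 B and plasma cell markers summed to 811 to 21383 and 924 to 54955, with 5 of them at 0 in at least 1 library, among them Blk, Cr2, Fcer2a and Pax5. In bulk tissue, fewer cells of a type and less RNA per cell cannot be told apart.

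The pattern over the libraries was shared by most subunits. Expressed as the deviation of each gene from its own mean over the 6 libraries, the median over the 40 subunits was 0.55, 0.30 and 0.01 on the log2 scale in the fragmented, recovered mice (1 to 3), against 0.82, -0.79 and -0.73 in the controls (1 to 3). The fragmented, recovered mice therefore lay between control 1 and the other controls. For 26 of the 40 subunits control 1 was above all 3 fragmented, recovered mice while controls 2 and 3 were both below them, an order seen in 5.26% of all genes tested. The range from the lowest to the highest mouse had a median of 0.51 over the subunits in fragmented, recovered mice and of 1.77 in controls, against 0.82 and 1.14 over all genes. The controls were the more spread group for 46 of the 48 members (95.8%, against 64.0% of all genes). A control range of at least 1 on the log2 scale was found in 39 members, and a range that wide among the fragmented, recovered mice in 6. The shares of all genes with ranges that wide were not counted.

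**Figure D2:**
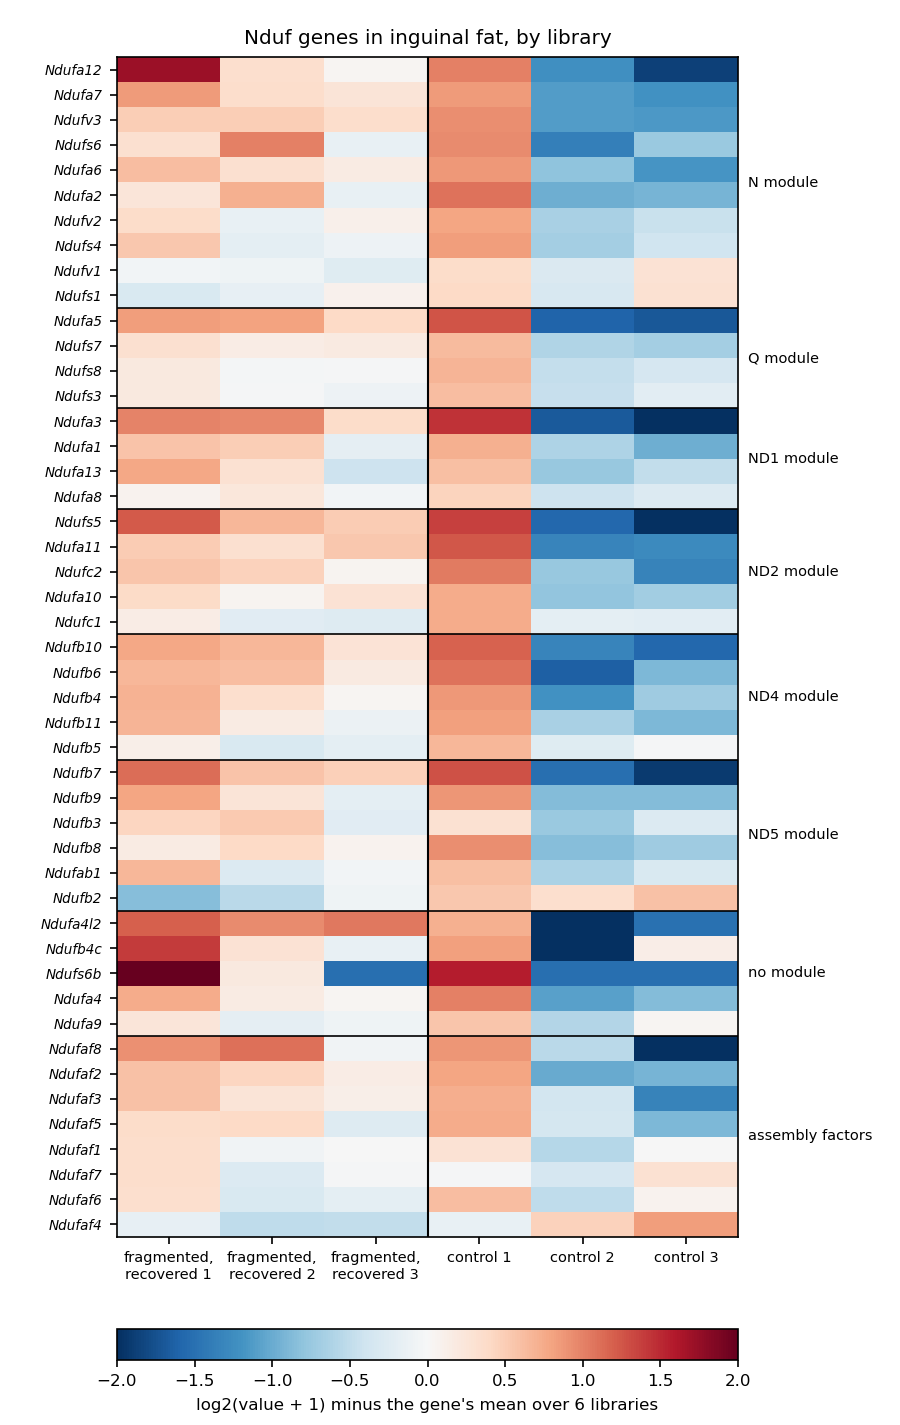
Each row is 1 of 47 Nduf genes and each column a library; colour is log2(normalised read count + 1) minus the gene's mean over the 6 libraries, with values beyond -2 or 2 drawn at the end colour. Control 1 is red and controls 2 and 3 are blue for most subunits, while Ndufb2 and Ndufaf4 run the other way, blue in the fragmented, recovered columns.

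After Ndufa4l2, the largest differences belonged to supernumerary subunits of several modules. Ndufs5, a small subunit of the ND2 module that sits in the intermembrane space, had 1809, 1217 and 1093 normalised read counts in fragmented, recovered mice, against 1995, 260.0 and 168 in controls. Control 1 was the highest library and controls 2 and 3 the lowest, so the groups overlapped, and control 1 was 7.67-fold above control 2 and 11.9-fold above control 3. The log2 difference was 1.59 with an SE of 0.76 (limma adjusted p = 0.697). Ndufa3, a single-span membrane subunit of the ND1 module, had 848, 835 and 549 in fragmented, recovered mice and 1169, 132 and 99.1 in controls, a difference of 1.55 (SE 0.77). Ndufb7, a subunit of the ND5 module, had 1237, 852 and 792 in fragmented, recovered mice and 1376, 199 and 150 in controls. Its difference was 1.44 (SE 0.70). The order of the libraries was the same in these 3 genes, with control 1 on top and controls 2 and 3 at the bottom. The sizes depended on the method. By edgeR and DESeq2 they were both 0.77 for Ndufs5, 0.69 and 0.67 for Ndufa3, and 0.75 and 0.74 for Ndufb7. By limma-voom with quality weights they were 2.39, 2.37 and 2.16. The limma difference is between means of log2 values. The ratio of the group means, fragmented, recovered over control, was 1.70 for Ndufs5, 1.59 for Ndufa3 and 1.67 for Ndufb7.

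Ndufa12, an N module subunit that takes the place of the assembly factor Ndufaf2 late in assembly, had 905, 347 and 282 in fragmented, recovered mice, against 550.0, 116 and 74.6 in controls. Here fragmented, recovered 1 and not control 1 was highest, and the difference was 1.40 (SE 0.70). Ndufa5, a Q module subunit, had 847, 825 and 620 in fragmented, recovered mice and 1130, 155 and 145 in controls, a difference of 1.36 (SE 0.68). Its fragmented, recovered mice lay within a narrow band below control 1 and above the other controls. For Ndufa5 the difference was 0.69 by edgeR, 0.68 by DESeq2 and 2.06 by limma-voom with quality weights. The bases upstream of the start sites of Ndufa3 (chr7:3617123-3617372, plus strand) and Ndufs5 (chr4:123718187-123718436, minus strand) are shown because these genes had the widest control ranges of the protein-coding subunits. They are the 250 bases before the RefSeq start site in GRCm38.p6, 5′ to 3′ on the gene's strand.
Ndufa3: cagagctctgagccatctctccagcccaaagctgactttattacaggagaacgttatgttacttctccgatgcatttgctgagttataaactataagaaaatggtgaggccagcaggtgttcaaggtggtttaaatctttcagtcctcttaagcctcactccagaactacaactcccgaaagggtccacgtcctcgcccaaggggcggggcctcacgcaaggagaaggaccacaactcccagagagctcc
Ndufs5: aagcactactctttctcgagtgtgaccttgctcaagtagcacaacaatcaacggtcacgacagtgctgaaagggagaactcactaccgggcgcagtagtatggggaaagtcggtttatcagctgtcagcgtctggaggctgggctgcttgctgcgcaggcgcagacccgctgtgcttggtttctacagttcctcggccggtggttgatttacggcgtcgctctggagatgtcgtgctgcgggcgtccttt

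The calls turned on control 1. With that mouse left out, 3 fragmented, recovered mice against controls 2 and 3, limma called 844 genes over the whole table, 563 higher (2.53%) and 281 lower (1.26%), and 16 of the 48 Nduf genes (33.3%). All 16 were higher subunits. They were Ndufb7, Ndufa5, Ndufb10, Ndufa3, Ndufs5, Ndufv3, Ndufa11, Ndufa7, Ndufa4l2, Ndufa6, Ndufb6, Ndufc2, Ndufa4, Ndufa10, Ndufb4 and Ndufb8, with limma adjusted p-values from 0.0181 to 0.0473. Ndufs5 then had a difference of 2.67 (SE 0.30). The median over the 40 subunits was 1.12 without control 1, 0.25 without control 2 and 0.27 without control 3, and no gene was called when any mouse other than control 1 was left out. Without the library of each group that was highest in muscle markers (fragmented, recovered 1 and control 2), 25 of the 40 subunits were higher and their median was 0.12.

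The markers of other cell types moved with this pattern in part. The median deviation of the mammary epithelium markers was 0.27, 0.71 and 0.84 in the fragmented, recovered mice (1 to 3), against 0.91, -1.22 and -1.34 in the controls (1 to 3), so control 1 was the highest library and controls 2 and 3 the lowest, as for the subunits. Of the 9 measured mammary markers 8 were higher, their summed level ran from 26608 to 33176 in fragmented, recovered mice and from 7597 to 35262 in controls, and the milk protein gene Csn2 was at 0 in at least 1 library. White adipocyte markers had median deviations of 0.68, -0.08 and -0.03 in fragmented, recovered mice and 0.39, -0.62 and -0.41 in controls. B and plasma cell markers had -2.94, 3.33 and -3.53 in fragmented, recovered mice and -3.95, 4.46 and 2.89 in controls, with 0 of 12 higher. The part of these cell types in the Nduf values was not tested beyond a fit with the B and plasma cell score as a covariate, which gave a subunit median of 0.30 with 28 of 40 higher.

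The 7 core subunits encoded in the nucleus, which hold the flavin and the iron-sulfur clusters and form the quinone pocket, had smaller differences than the supernumerary ones. They had 5 higher and 2 lower values and a median of 0.09, against a median of 0.63 with 27 of 31 higher for the protein-coding supernumerary subunits. Those 31 were all protein-coding Nduf subunits by name outside the core. They thus included Ndufa4, now placed in cytochrome c oxidase, and its paralogue Ndufa4l2. The core subunits also had longer transcripts, with a median of 1623 bases against 763, and whether the classes differ was not tested. In the N module, Ndufv1, which binds NADH and the flavin, had 2527, 2477 and 2204 in fragmented, recovered mice and 3375, 2152 and 3213 in controls. Control 2 alone was below the fragmented, recovered mice, and the difference was -0.25 (SE 0.25). Ndufs1, the largest iron-sulfur subunit of the module, had 1920, 2108 and 2521 in fragmented, recovered mice, against 3111, 1906 and 2918 in controls, also -0.25 (SE 0.26). For both genes control 3 sided with control 1, unlike in most supernumerary subunits. Ndufv2, an iron-sulfur partner of Ndufv1, had 2739, 1914 and 2268 in fragmented, recovered mice and 3655, 1354 and 1553 in controls, a difference of 0.21 (SE 0.37).

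Of the core subunits in the Q module, Ndufs3, which faces the mitochondrial matrix, had 1834, 1569 and 1486 in fragmented, recovered mice, against 2456, 1161 and 1390 in controls, a difference of 0.04 with a 95% interval from -0.63 to 0.71, and the groups overlapped. Ndufs7, which carries the last iron-sulfur cluster before the quinone, had 1669, 1481 and 1523 in fragmented, recovered mice and 2068, 884 and 834 in controls. It had the largest difference of the core subunits at 0.43 (SE 0.34), and its fragmented, recovered mice lay close together between control 1 and the other controls. Ndufs8, another iron-sulfur subunit, had 1177, 999 and 1011 in fragmented, recovered mice, against 1635, 734 and 815 in controls, and a difference of 0.09 (SE 0.32). The core median changed sign with the processing: it was -0.27 with GC content and length trends removed, -0.27 without the library of each group that was highest in muscle markers, and -0.10 with the B and plasma cell score as a covariate. It was -0.03, -0.14 and -0.05 without fragmented, recovered 1, control 2 and control 3.

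By module, the differences of the listed subunits were of one sign in the Q and ND1 modules and mixed elsewhere. Ndufa9, with a difference of -0.01, was on none of the module lists and is not in these counts. In the N module 8 of 10 were higher with a median of 0.64, in the Q module 5 of 5 with a median of 0.10, and in the ND1 module 4 of 4 with a median of 0.51. In the ND2 module 4 of 5 were higher (median 0.71), in the ND4 module 4 of the 5 measured (median 0.71) and in the ND5 module 5 of 6 (median 0.45). Ndufb1, the sixth ND4 module gene on the list, had no row of that name. All of these medians were above the 0.02 of all genes, and none of the subunits behind them was called. Ndufa7, an N module subunit, had 2291, 1616 and 1508 in fragmented, recovered mice and 2291, 580 and 548 in controls (difference 0.98, SE 0.50). Its controls 2 and 3 lay below every fragmented, recovered mouse and its control 1 level with the highest of them.

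Ndufb2, a small membrane subunit of the ND5 module, was the exception among the subunits. It had 148, 185 and 254 normalised read counts in fragmented, recovered mice, against 391, 340.2 and 403 in controls. Every fragmented, recovered mouse lay below every control, and here the controls lay close together. The mean was 196 ± 53.5 in fragmented, recovered mice and 378 ± 33.4 in controls (SD, n = 3 each), a log2 difference of -0.98 with a 95% interval from -1.66 to -0.30. The limma p was 0.0094 unadjusted and 0.697 adjusted. Over all the fits run, the difference stayed negative, from -1.18 to -0.65, with adjusted p-values from 0.109 to 0.972. The annotation gives Ndufb2 principal transcripts of 455 and 4371 bases, and which of them the reads came from was not tested. The other subunits with negative differences were Ndufb5 (-0.26, SE 0.28), Ndufs1 and Ndufv1 (both -0.25), Ndufc1 (-0.22) and Ndufa9 (-0.01). Ndufb5, an ND4 module subunit, had 2013, 1503 and 1613 in fragmented, recovered mice and 2929, 1575 and 1824 in controls, so its groups overlapped.

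Ndufaf4, which works with Ndufaf3 in an early step of Q module assembly, was the only assembly factor whose groups did not overlap. It had 456, 359 and 361 in fragmented, recovered mice, against 459, 702 and 908 in controls. The margin was narrow, since fragmented, recovered 1 and control 1 were nearly equal. Means were 392 ± 55.6 in fragmented, recovered mice and 690 ± 225 in controls (SD, n = 3 each), a log2 difference of -0.77 with a 95% interval from -1.45 to -0.09. The limma p was 0.030 unadjusted and 0.697 adjusted. The difference was negative in every fit run, from -1.03 to -0.32, with adjusted p-values from 0.0564, without control 1, to 0.972. The 250 bases upstream of the start sites of Ndufb2 (chr6:39592315-39592564, plus strand) and Ndufaf4 (chr4:24897833-24898082, plus strand) are shown as those of the only members that were lower in all 3 fragmented, recovered mice. Capitals mark a match to the NRF1 letters described further on, on one strand or the other.
Ndufb2: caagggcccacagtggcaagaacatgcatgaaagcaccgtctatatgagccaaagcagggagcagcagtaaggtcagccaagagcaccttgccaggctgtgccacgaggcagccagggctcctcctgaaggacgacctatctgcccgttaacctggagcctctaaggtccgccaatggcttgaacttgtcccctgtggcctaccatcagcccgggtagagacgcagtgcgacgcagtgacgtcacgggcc
Ndufaf4: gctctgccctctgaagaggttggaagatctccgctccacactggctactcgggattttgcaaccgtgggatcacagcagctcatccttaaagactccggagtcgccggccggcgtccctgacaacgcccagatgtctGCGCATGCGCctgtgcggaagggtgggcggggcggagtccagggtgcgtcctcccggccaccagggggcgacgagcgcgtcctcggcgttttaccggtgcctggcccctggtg

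The other assembly factors followed the subunits to differing degrees. Ndufaf8, a partner of Ndufaf5, had 182, 208 and 91.2 in fragmented, recovered mice and 178, 65.6 and 18.9 in controls, with a difference of 1.30 (SE 0.73). Ndufaf2, which binds the forming complex before the N module docks, had 182, 164 and 135 in fragmented, recovered mice and 211, 59.9 and 63.5 in controls (0.77, SE 0.51). Controls 2 and 3 were the lowest libraries for both. Ndufaf3 had 358, 284 and 256 in fragmented, recovered mice, against 391, 184 and 93.6 in controls (0.65, SE 0.48), so it had a difference of the sign opposite to that of its partner Ndufaf4. Ndufaf5, which hydroxylates Ndufs7, had 170.0, 173 and 109 in fragmented, recovered mice and 222, 103 and 70.2 in controls (0.33, SE 0.47). Both showed overlapping groups with control 1 on top. By limma-voom with quality weights the differences were 1.99 for Ndufaf8, 1.17 for Ndufaf2 and 1.10 for Ndufaf3, and DESeq2 gave 0.42 for Ndufaf3.

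Ndufaf1, of the assembly complex that builds the ND2 module, had 389, 289 and 302 in fragmented, recovered mice and 372, 203 and 303 in controls, a difference of 0.19 (SE 0.31). Ndufaf7, an arginine methyltransferase of the matrix, had 445, 290 and 342 in fragmented, recovered mice and 344, 278 and 431 in controls, a difference of 0.03 with a 95% interval from -0.63 to 0.69. Ndufaf6, an early assembly factor, had 146, 92.5 and 100.2 in fragmented, recovered mice, against 177, 80.3 and 120.3 in controls, and a difference of -0.11 (SE 0.42). In all 3 genes control 2 was the lowest library and the groups overlapped. The median over the 8 assembly factors was 0.59 without control 1 and 0.09 without control 2, and it turned to -0.02 without fragmented, recovered 1 and control 2.

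Ndufa4l2 and Ndufa4 are paralogues. Ndufa4 was first counted with complex I and is now placed in cytochrome c oxidase, and Ndufa4l2 is known as a gene induced by low oxygen. Ndufa4l2 had 177, 149 and 160.0 in fragmented, recovered mice, against 126, 13.6 and 26.7 in controls. Each fragmented, recovered mouse exceeded each control, with control 1 far closer to them than the other controls. Means were 162 ± 14.1 in fragmented, recovered mice and 55.4 ± 61.3 in controls (SD, n = 3 each), a difference of 2.13 with a 95% interval from 0.53 to 3.73. The limma p was 0.014 unadjusted and 0.697 adjusted. Over all fits run it lay between 1.39 and 3.02, with adjusted p-values from 0.0285, without control 1, to 0.972. Ndufa4 had 4821, 3231 and 2935 in fragmented, recovered mice and 5764, 1347 and 1573 in controls, with overlapping groups and a difference of 0.63 (SE 0.50), or 0.35 by edgeR, 0.34 by DESeq2 and 1.04 by limma-voom with quality weights.

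**Figure D3:**
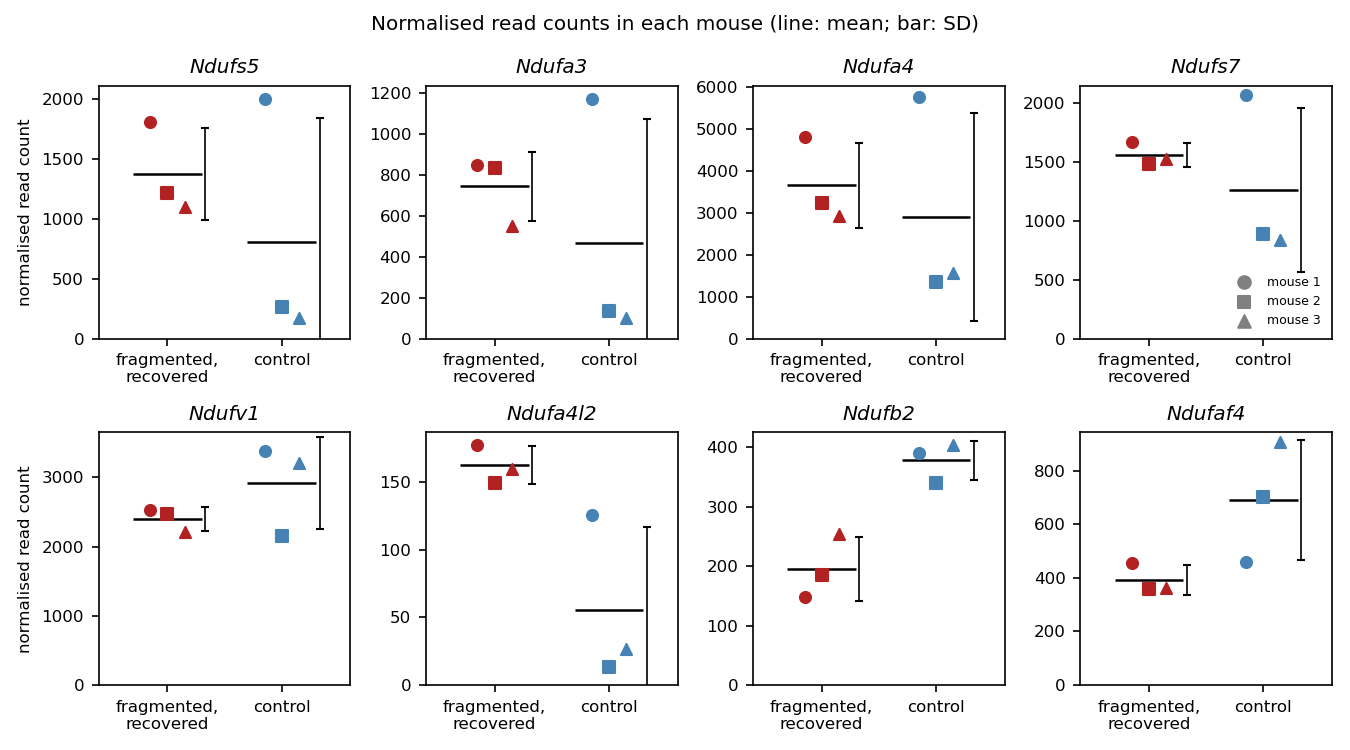
Normalised read counts of 8 Nduf genes in each mouse, fragmented, recovered mice in red and controls in blue, with the mean as a line and the SD as a bar (n = 3 a group; axes start at 0 and bars reaching below it end there). For Ndufs5, Ndufa3 and Ndufa4 the control mean lies between 1 high and 2 low mice, while Ndufa4l2, Ndufb2 and Ndufaf4 have groups that do not overlap.

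Ndufab1, the mitochondrial acyl carrier protein that complex I holds as a subunit, had 1752, 909 and 1056 in fragmented, recovered mice, against 1678, 708 and 886 in controls. The groups overlapped, with fragmented, recovered 1 and control 1 the highest libraries, and the difference was 0.23 (SE 0.37). Ndufb4c and Ndufs6b are annotated as processed pseudogenes, and the counting could have split reads between them and Ndufb4 and Ndufs6, so their values are uncertain. Ndufb4c had 2.26 to 46.7 normalised read counts over the 6 libraries and Ndufs6b was at 0 in fragmented, recovered 3 and in controls 2 and 3. Without both, the 38 protein-coding subunits had 32 higher and 6 lower values and a median of 0.52.

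By median, the spread within both groups was wider for short transcripts, with the larger gap in the controls. The 22 protein-coding subunits with a principal transcript under 1 kb had a median control range of 2.09 on the log2 scale and a median difference of 0.72, and the 16 with a transcript of 1 kb or more had 1.15 and 0.09. All genes tested had the same order, with a median control range of 2.12 for the 4029 under 1 kb and 1.01 for the 18233 of 1 kb or more, and median differences of 0.25 and -0.003. Among the fragmented, recovered mice the median range was 0.61 for the short subunits and 0.42 for the long ones. Over all genes tested it was 1.33 under 1 kb and 0.74 at 1 kb or more in these mice. Across the 38 protein-coding subunits, Spearman's rho was -0.61 between length and control range and -0.63 between length and difference. It was -0.42 between mean level and control range and 0.26 between GC content and control range. These are descriptions across genes that share the same 6 libraries. Lengths were of the longest principal transcript. Ndufb2, Ndufc1 and Ndufs8 also have principal transcripts of 455, 315 and 780 bases, which would place them under 1 kb. Their control ranges were 0.24, 0.95 and 1.16, and their differences -0.98, -0.22 and 0.09. The length classes and rho values with the shorter transcripts were not computed. Of the 16 subunits called without control 1, 14 had transcripts under 1 kb, as had 22 of all 38 protein-coding subunits. The share under 1 kb of all genes called in that fit was not counted. With each library's trends on GC content and length removed, 27 of the 40 subunits were higher, the median was 0.31 and limma called 0 genes.

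**Figure D4:**
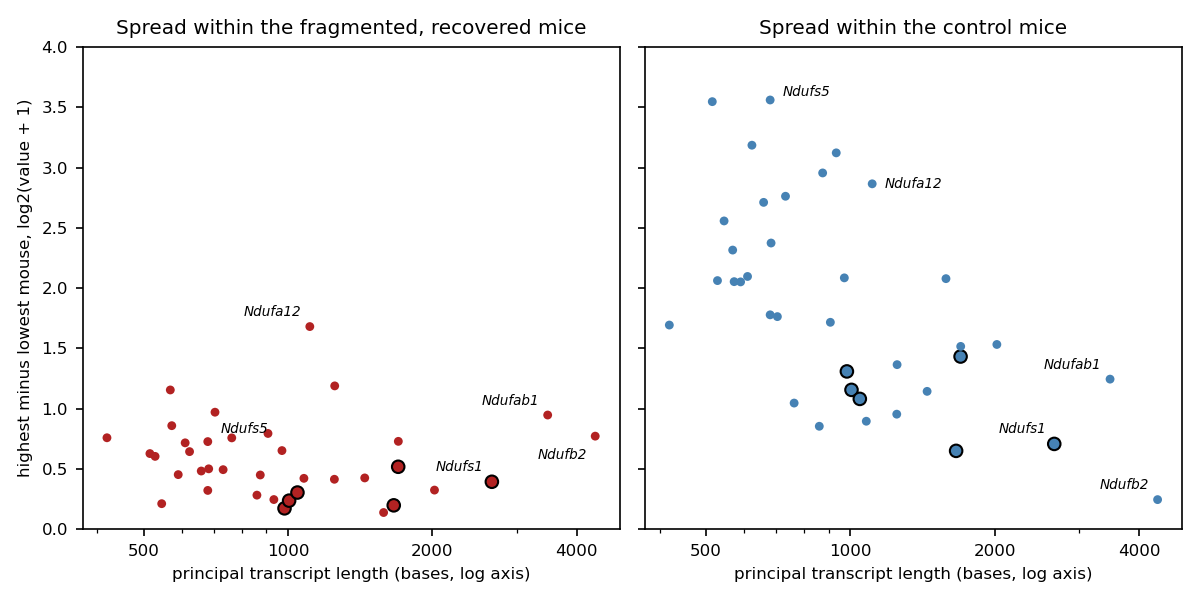
Range from the lowest to the highest mouse of a group, log2(normalised read count + 1), against transcript length (log axis) for 37 of the 38 protein-coding subunits. Length is that of the longest principal transcript, and outlined points are core subunits. The control ranges at the right are widest for short transcripts and reach 3.56 for Ndufs5, whereas the ranges of the fragmented, recovered mice at the left reach 1.68, for Ndufa12.

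Per kilobase of transcript, the mean over the 6 libraries was highest for Ndufa4, at 5375 normalised read counts per kb, and Ndufa7 was also among the highest, at 2789. The lowest protein-coding subunits on this scale were Ndufb2 at 65.6, Ndufa4l2 at 116 and Ndufab1 at 335. For Ndufb2 and Ndufab1 the place depended on the transcript taken: with the shortest principal transcript Ndufb2 had 631 per kb and Ndufab1 823. All 8 assembly factors lay between 110.4 per kb for Ndufaf6 and 213 for Ndufaf1, below every protein-coding subunit other than Ndufb2 and Ndufa4l2.

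The promoter windows of the members were searched for the letters of 4 factors known to regulate nuclear genes of mitochondria, in 300-base RefSeq windows (250 bases before and 50 after the start site, GRCm38.p6, both strands). Windows were used for 40 of the 48 genes. The YY1 letters AAGATGGC were found in 8 of these genes (20%, against 3.19% of all genes with a window), the NRF1 letters GCATGCGC, which overlap their own reverse complement, in 5 (12.5%, against 3.05%), the GABPA letters CCGGAAGT in 1 (2.5%, against 4.31%) and the ESRRA letters TCAAGGTCA in 0 (against 0.466%). Each YY1 match was read on the gene's own strand and began between bases 261 and 289 of the window, that is, after the start site. The 8 are shown in 30 bases each, with the YY1 letters in capitals, because it was the motif found in the most members.
Ndufa3: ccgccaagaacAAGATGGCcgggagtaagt
Ndufa9: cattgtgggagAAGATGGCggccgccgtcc
Ndufaf8: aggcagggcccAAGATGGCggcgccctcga
Ndufb8: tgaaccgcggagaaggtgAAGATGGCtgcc
Ndufc1: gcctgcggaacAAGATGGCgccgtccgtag
Ndufs4: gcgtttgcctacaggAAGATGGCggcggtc
Ndufs6: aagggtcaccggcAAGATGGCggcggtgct
Ndufs7: aggccgaggccAAGATGGCggcgctggcgg
The members with the YY1 letters included Ndufa3 and Ndufaf8, which had differences of 1.55 and 1.30, and Ndufa9 and Ndufc1, at -0.01 and -0.22. The NRF1 letters were found in Ndufa6, Ndufa8, Ndufa11, Ndufaf4 and Ndufaf5. In the Ndufaf4 window they were found at base 138, where both strands match in overlap, and again at base 252. A match is a run of letters and not a measured binding site.

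Other nuclear genes of the pathway had narrower control ranges than the Nduf subunits, with medians of 0.74 over the other complex I assembly factors and 0.81 over the complex II genes, against 1.77. Their transcripts were also longer, with median lengths of 2246 and 2695 bases against 892, and the 16 subunits of 1 kb or more had a median control range of 1.15. Whether the lists differ at like length was not tested. Of 11 other complex I assembly factors 10 were measured, 8 were higher and 2 lower, with a median difference of 0.16. Ecsit, of the assembly complex that also holds Ndufaf1, had the largest difference, with 420, 356 and 336 in fragmented, recovered mice and 447, 181 and 195 in controls (0.56, SE 0.37). Tmem70, which acts in assembly of ATP synthase and of complex I, had 1343, 881 and 1049 in fragmented, recovered mice, against 1420, 1239 and 1462 in controls (-0.35, SE 0.24). In both lists of assembly factors the groups overlapped for every gene but Ndufaf4. Of the 8 complex II genes, which feed electrons from succinate into the same chain, 4 were higher and 4 lower, with a median of -0.05. The most abundant, Sdha and Sdhb, had differences of -0.19 and -0.31, the assembly factor gene Sdhaf1 had 1.19 (SE 0.60) and Sdhaf3 had -0.35.

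The 7 complex I subunits encoded by mitochondrial DNA did not share the pattern of the nuclear ones by value. They had 2 higher and 5 lower values and a median of -0.15. Their median deviations were 0.44, -0.69 and -0.21 in fragmented, recovered mice and 0.26, 0.03 and -0.13 in controls, so fragmented, recovered 2 was the lowest library. The gene mt-Nd6, the one of them encoded on the other strand, had the lowest difference, -1.31 (SE 0.48). The limma p was 0.023 unadjusted and 0.697 adjusted. It had 42802, 19761 and 33704 in fragmented, recovered mice, against 40935, 101641 and 104525 in controls, so control 1 sided with the fragmented, recovered mice and the groups overlapped. Strand-aware counting is not stated in the sources used here, so reads of mt-Nd6 and of the transcripts opposite to it cannot be told apart. mt-Nd4l had the highest, at 0.16.

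Of 13 regulators of mitochondrial gene expression, 3 were higher and 10 lower, with a median of -0.14. Esrra, the nuclear receptor that acts with PGC-1 coactivators on respiratory genes, had 411, 675 and 384 in fragmented, recovered mice and 477, 363 and 252 in controls (0.43, SE 0.34). Ppara, a receptor that drives fatty acid oxidation, had 128, 259 and 177 in fragmented, recovered mice, against 139, 279 and 418 in controls (-0.49, SE 0.45). Yy1, the most abundant of the list, had 2014, 2165 and 2373 in fragmented, recovered mice, against 2282, 3523 and 3449 in controls (-0.47, SE 0.25). Its control 1 lay among the fragmented, recovered mice and its other controls above them, whereas for most subunits those controls lay below. Gabpa, the next most abundant, had a difference of -0.34 (SE 0.24). None of these genes was called by limma.

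**Figure D5:**
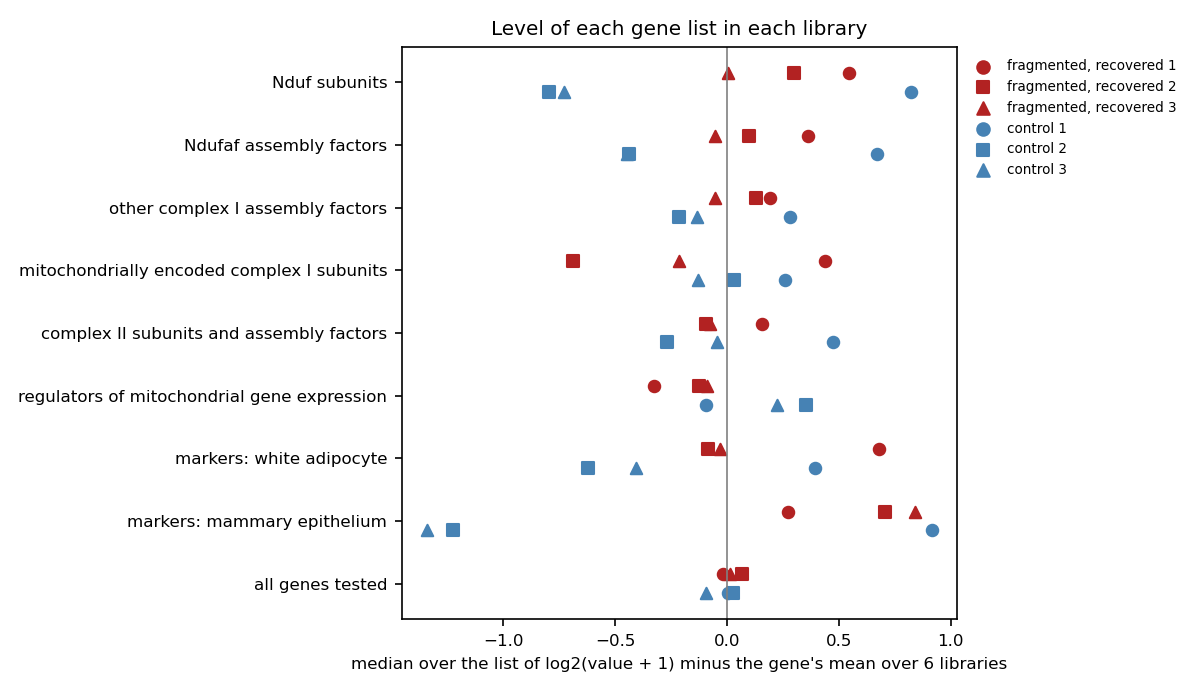
Median over each gene list of log2(normalised read count + 1) minus the gene's mean over the 6 libraries, with the fragmented, recovered mice in red above the controls in blue. For the Nduf subunits control 1 lies at 0.82 and controls 2 and 3 at -0.79 and -0.73. The mammary epithelium markers also have control 1 high and controls 2 and 3 low, while all genes tested lie between -0.10 and 0.07.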

How the data were processed

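Per the submitters' processing notes, the authors used featureCounts 1.5.0-p3, HISAT2 2.0.5 and CASAVA, on mm8. The deposited signal was whole reads times 1 constant per library, within 0.02, in 100% of values; the scaling tool is not given in the sources used here. Recovered reads were 15610201 to 19703569 per library, and replicates differed by more than sampling noise. Limma 3.58.1 (R 4.3.3, intensity trend) tested log2(value + 1), which understates differences of low genes, in the 22290 genes whose mean reached 1, adjusted by Benjamini-Hochberg at 0.05. On the recovered reads, edgeR 4.0.16 and DESeq2 1.42.0 served as alternatives. The fits were tested on simulated data. Members, lists and motifs were chosen with earlier results of these data known. Not every member's own values are reported here. Values in every library are given for the 4 subunits at each end of the differences, the 8 smallest p-values, the 3 subunits at each end per kb, core subunits, Ndufaf genes, Ndufa4 and Ndufa4l2; other lists are named by extremes and highest levels. Lengths and GC content are of the longest principal GENCODE M21 transcript. Promoters (RefSeq, GRCm38.p6) are of a build other than mm8. Whether the replicate numbers pair the samples was not settled, and the main fit left them unpaired. Correlations of same-numbered deviations were 0.18, 0.39 and 0.04, and those of differently numbered ones ran from -0.36 to 0.21.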

Additional observations from a re-analysis of the deposited data

How the results depend on the processing

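The subunit median stayed above 0 in every alternative run, but its size moved, to 0.37 with edgeR, 0.36 with DESeq2 and 0.93 with limma-voom with quality weights; the assembly factor median was 0.19, 0.18 and 0.47 in these fits. Calls depended on control 1: leaving out each mouse in turn gave 0 to 844 genes called over the whole table and 0 to 16 members called, the upper values without control 1. The replicate block changed no call: limma called 0 genes, with a subunit median of 0.55. With the block, 2676 genes had an unadjusted limma p under 0.05, against 1201 without it. The smallest limma adjusted p in that fit was 0.070 over all genes and 0.370 among the Nduf members. limma-voom with quality weights also called 0 genes, with 5349 at an unadjusted p under 0.05 and a smallest adjusted p of 0.090. Scaling by library size alone gave a subunit median of 0.67 and moved the median of all genes to 0.12. The assembly factor median turned to -0.024 without the library of each group that was highest in muscle markers. Of 475 values of 25 genes named by rule, 441 kept their sign over 19 alternatives and 34 did not. Ndufs3 turned to -0.018 with edgeR and -0.034 with DESeq2, Ndufaf7 to -0.060 with limma-voom, and Ndufaf6 to 0.0074 by library size. Other named genes moved by more than 1.5 times in size: limma-voom gave 0.40 for Ndufab1, 0.69 for Ndufaf5, -0.10 for Ndufb5, -0.16 for Ndufs1, 0.76 for Ndufs7 and 0.50 for Ndufv2, edgeR and DESeq2 gave 0.22 and 0.20 for Ndufaf5 and 0.09 and 0.08 for Ndufv2. Once trends on GC content and length were removed, the values were -0.044 for Ndufaf7, -0.39 for Ndufs3, -0.22 for Ndufs7 and -0.38 for Ndufs8. Without the muscle-high libraries they were -0.31 for Ndufab1, -0.18 for Ndufaf1, -0.29 for Ndufaf7, -0.27 for Ndufs3, -0.20 for Ndufs8 and -0.19 for Ndufv2. With the B and plasma cell score as a covariate they were -0.030 for Ndufab1, -0.038 for Ndufaf7, -0.13 for Ndufs3, -0.099 for Ndufs8 and -0.060 for Ndufv2. With each mouse left out in turn, Ndufab1 ran from -0.054 to 0.59, Ndufaf1 from -0.053 to 0.38, Ndufaf5 from -0.034 to 0.79, Ndufaf6 from -0.40 to 0.17, Ndufaf7 from -0.13 to 0.19, Ndufb5 from -0.45 to 0.0018, Ndufs3 from -0.19 to 0.35, Ndufs8 from -0.12 to 0.45 and Ndufv2 from -0.062 to 0.65. The cause of these turns was not tested.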

Other observations

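The 2 rows left out of the members for their -ps symbols were also measured. Ndufb1-ps, which the GENCODE M21 annotation gives as a bidirectional promoter lncRNA, had 1174, 664 and 553 normalised read counts in fragmented, recovered mice, against 1236, 926 and 839 in controls, a log2 difference of -0.38 (SE 0.32, limma adjusted p = 0.731). It was the row named after Ndufb1, a subunit for which no row of its own was used here. Ndufab1-ps, a processed pseudogene, had 481, 170 and 184 in fragmented, recovered mice, against 301, 105.1 and 118 in controls, a difference of 0.67 (SE 0.52, limma adjusted p = 0.721), and reads may have been shared with Ndufab1.

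Of the other marker lists, 5 of 8 brown and beige adipocyte markers, 4 of 6 blood endothelium markers, 4 of 6 keratinocyte markers, 3 of 8 macrophage markers, 2 of 8 neutrophil markers, 1 of 10 T and NK cell markers and 0 of 8 proliferating cell markers were higher in the fragmented, recovered mice. Median deviations of the brown and beige markers were -0.75, 1.13 and 0.91 in the fragmented, recovered mice (1 to 3), against 1.14, -0.79 and -0.76 in the controls (1 to 3). Controls 2 and 3 were thus low and control 1 high for these markers as for the Nduf subunits, while fragmented, recovered 1 stood with the low libraries. The part of these cells in the Nduf values was not tested.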
